A study of Homo sapiens with 19 samples.

Results

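THP-1 macrophages given vitamin C (vit C) were compared with untreated (UT) THP-1 macrophages 48 h after the start of treatment. The comparison rested on 4 of the 19 arrays of the series, 2 labelled UT and 2 labelled vit C at 48 h, each hybridised in one colour on an Agilent gene expression array. Of 31033 gene names on the array, 20100 form the set described here, because 1 or more of their probes passed the scanner software's test for a signal well above background on both arrays of UT, of vit C or of both. For 18481 of them a probe passed on all 4 arrays. THP-1 is a human monocytic leukemia cell line, and every group shared the same differentiation: 30 nM phorbol 12-myristate 13-acetate (PMA) for 16 to 18 h, which makes the cells stop floating and take on macrophage features, then a rest of 2 to 3 h in fresh medium. The vit C group then received 0.1 mM vit C, and the UT group received none. All arrays thus come from one leukemic line driven by a phorbol ester, not from macrophages of donors. The study calls its samples biological replicates. Its methods describe flasks seeded in triplicate, of which only RNA samples above an integrity limit went on to arrays. The labels do not say from which cultures the arrays came. The p-values here measure the spread within the groups of all 19 arrays, and the number of arrays limits the precision.

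Vit C (ascorbate) keeps iron reduced in the iron- and 2-oxoglutarate-dependent dioxygenases, a family that hydroxylates collagen chains and hypoxia-inducible factors and removes methyl groups from histones and DNA. Human cells cannot make it and take it up through sodium-coupled and glucose transporters. Macrophages sense microbes with Toll-like and NOD-like receptors, clear lipoproteins and dying cells with scavenger receptors, secrete cytokines and chemokines, and remodel matrix with proteases and collagen-binding proteins.

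In what follows a level is the log2 of a probe's background-corrected signal minus the 75th percentile of its array, so that 0 is as bright as that percentile. Levels compare arrays for one gene and are not compared between genes. A log2 fold change is the vit C mean minus the UT mean, with the standard error (SE) and the Benjamini-Hochberg adjusted p (q) of a limma model of all 19 arrays. A gene was called where this change was 1 or more in either direction with q no higher than 0.05. Values belong to the gene's brightest probe. Because arrays measure bulk RNA, fewer cells of a kind and less RNA per cell cannot be told apart.

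The 4 arrays were alike in depth, with 75th percentile signals of 336.9 and 340.59 for UT and 370.39 and 350.03 for vit C, and between 58.6% and 62.3% of spots well above background. Log2 signals correlated at r = 0.988 between the UT arrays, at 0.985 between the vit C arrays and at 0.976 to 0.979 between groups. Macrophage markers were present, with CSF1R, the receptor for macrophage colony-stimulating factor, at 8.34 and 8.27 on UT and 8.30 and 8.44 on vit C arrays, and TYROBP, a signalling adaptor, at 7.50 and 7.55 on UT and 7.19 and 7.40 on vit C. Of 15 macrophage markers on the array, 12 were well above background on all 4 arrays (median log2 fold change -0.084), 0 were called higher (beside 2.08% of all genes tested) and 2 were called lower, ITGAM and MSR1 (beside 1.56%). HLA-DRA and MRC1, defining markers of many macrophages, were not well above background in either group. None of the T, B, endothelial, epithelial or erythroid cell markers that could be tested was called (1 T cell, 1 B cell and 1 endothelial marker were higher by 1 or more at an unadjusted p of 0.05). Of the 3 fibroblast markers tested only DCN was called, and 2 were higher without adjustment at the same fold.

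The slides differ between the 48 h groups. According to the file headers both UT arrays of 48 h lie on slide 1, with all other UT arrays of 8 and 24 h and 1 of the 3 UT arrays of 96 h, whereas the vit C arrays of 48 h lie on slide 2 and slide 3. No slide holds both groups of 48 h, so within 48 h slide and treatment cannot be told apart. The 3 UT arrays of 96 h give a direct reading, since they share one condition across slide 1 (replicate 1) and slide 2 (replicates 2 and 3), though with 1 array on slide 1 the slide and that array's own deviation cannot be told apart. A gene is said here to step with the slide where both slide 2 arrays exceed the slide 1 array by at least 1 on the log2 scale. Of 316 genes called higher at 48 h by a brightest probe well above background on all 4 arrays, 86 (27.2%) stepped up with the slide, against 338 (1.89%) of 17893 genes not called and 0 of 234 called lower. A step down was seen in 6 of the 316 (1.9%), ALPK2, S100P and ASNS among them, against 44 (0.246%) of those not called and 0 of those called lower. For 95 of the 316 (30.1%), each of the 8 arrays of slide 1 lay below each of the 11 arrays of slides 2 to 4, as for 288 of all 18443 genes measured on all 4 arrays (1.56%). The 8 are all UT and 9 of the 11 are vit C, so this split holds slide and treatment together but for 2 UT arrays of 96 h, and the 316 were chosen by 4 of the same arrays.

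Several of the largest calls belong to this set. PABPC3, an intronless poly(A)-binding protein gene, was at 1.39 and 0.96 on the UT arrays and 4.23 and 4.76 on the vit C arrays (log2 fold change 3.32, SE 0.67, q = 0.0156). Within UT at 96 h it stepped by 2.87 and 2.92 between slide 1 and the slide 2 arrays. CSNK1A1L, a casein kinase retrogene, was called at 3.82 and stepped by 3.52 and 4.13. The same held for the pseudogenes NACAP1 (3.99 at 48 h; steps 3.84 and 4.56) and FKSG2 (2.84; 2.09 and 3.01), for LOC642490 (3.45; 3.26 and 3.94), and for the histone H3 gene HIST1H3I (2.997; 1.84 and 2.61). With a slide 1 term in the model, an alternative chosen after seeing the data, their 48 h estimates were between -0.20 and 0.77. Since only the UT arrays of 96 h hold slide 1 and another slide within one condition, this estimate is the 48 h change minus the mean UT step, so it restates the step, rests on the 1 slide 1 array of UT at 96 h and is no second check. The small nucleolar RNA SNORA16B (3.11) stepped on 1 of the 2 slide 2 arrays (3.06 and -0.43). By class, pseudogenes were called higher in 18 of 477 cases (3.77%) and lower in 2 (0.419%), against 260 (1.81%) higher and 291 (2.02%) lower of 14380 protein-coding genes, and names with no current symbol in 244 (2.47%) and 95 (0.96%) of 9898. The largest changes described below are therefore given for genes that do not step up with the slide, with their UT steps where they matter.

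**Figure D1:**
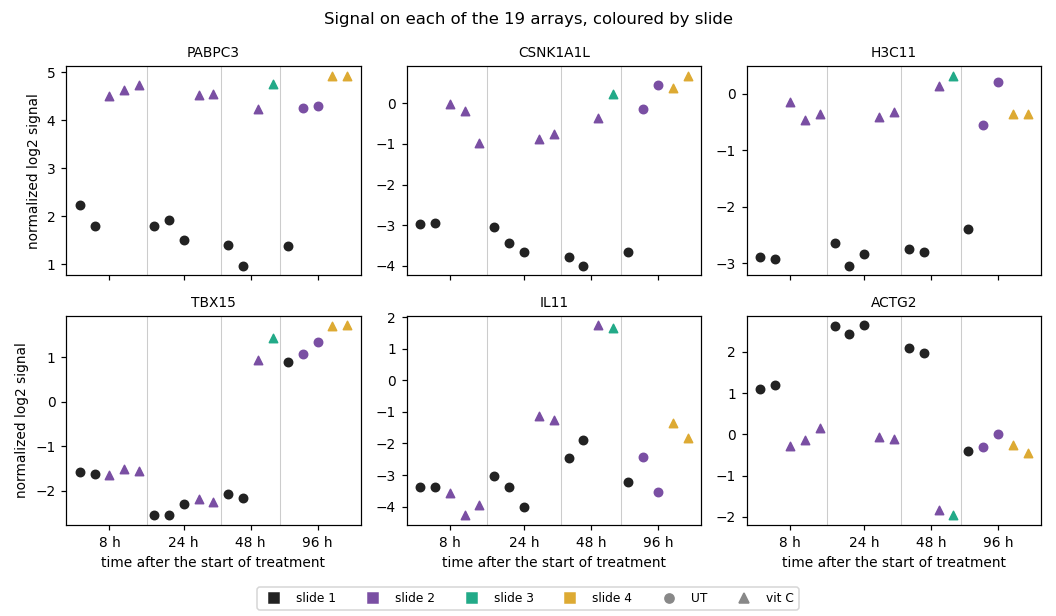
Normalized log2 signal (y axis) of 6 genes on each of the 19 arrays, ordered by time point (x axis), with circles for UT, triangles for vit C and colour for the slide. PABPC3, CSNK1A1L and H3C11 (the current symbol of HIST1H3I) step with the slide as defined in the text, with UT replicate 1 of 96 h (slide 1) far below replicates 2 and 3 (slide 2). TBX15, IL11 and ACTG2 do not step, though in IL11 replicates 2 and 3 lie on either side of replicate 1 (0.79 and -0.31).

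In total 530 of 25438 genes tested were called higher with vit C (2.08%) and 396 lower (1.56%), or 926 in either direction (3.64%). A further 5595 genes, whose probes moved in opposite directions, were not tested. They stay in the medians and member counts of the gene lists below but could not be called, and the calls in a list are read against 2.08% higher and 1.56% lower over all genes. Among genes called by a probe well above background on all 4 arrays, 357 of 14902 were higher (2.4%) and 253 lower (1.7%). The median log2 fold change over genes was -0.070. At an unadjusted p of at most 0.05 and the same fold, 1420 genes were higher and 1035 lower. Both vit C arrays lay above both UT arrays for 4730 of 18443 genes (25.6%) and below them for 7017 (38%), so groups that do not overlap were common. These counts lean on the spread shared with the other time points: limma on the 4 arrays alone called 0 genes in either direction (without adjustment, at p up to 0.05, 1482 higher and 1045 lower), and the methods' t-test after Benjamini-Hochberg adjustment called 1 higher and 2 lower (914 and 616 unadjusted). With the slide 1 term 86 genes were higher and 57 lower, of which 56 and 46 were among the calls above. Without UT replicate 1 the counts were 153 higher and 211 lower, without UT replicate 2 122 and 158, without vit C replicate 1 332 and 204 and without vit C replicate 2 120 and 222. Of 89 genes that the naming rule took and that were called by their brightest probe, 37 kept the call without each array in turn, 30 kept it with the slide 1 term and 23 did both. With slide as a fixed block 19 of the 89 kept it, and 13 of the 23. Slide 3 holds vit C replicate 2 alone, so that fit takes this array out and leaves vit C replicate 1 less the UT step. In what follows the estimate with the slide 1 term stands beside some genes only. Others lost the call with that term too, among them CXCL1 (0.91), IL23A (0.80) and PLAT (1.29).

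**Figure D2:**
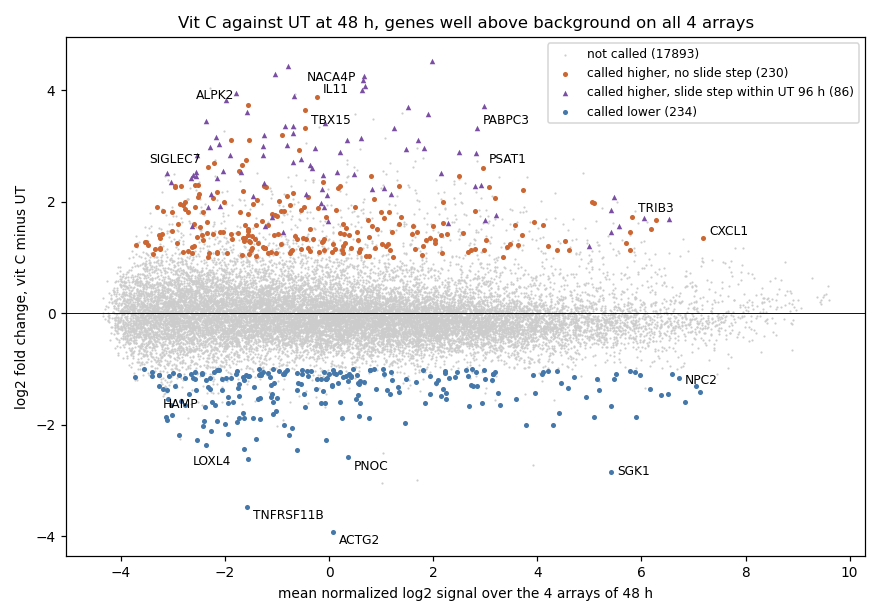
Log2 fold change of vit C over UT at 48 h (y axis) against the mean normalized log2 signal of the 4 arrays (x axis) for the 18443 genes whose brightest probe was well above background on all 4. Purple triangles are the 86 genes called higher that stepped with the slide within UT at 96 h, orange points the other calls higher and blue points the 234 called lower, among which no gene stepped.

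Among genes well above background on all 4 arrays and outside the slide set, the largest called rise was that of IL11, a cytokine of the IL-6 family that signals through gp130. Its level was -2.45 and -1.89 on the UT arrays and 1.74 and 1.66 on the vit C arrays (log2 fold change 3.87, or 14.6-fold, SE 0.38, q = 0.000167). Within UT at 96 h its slide 2 arrays were 0.79 and -0.31 away from slide 1. ALPK2, an atypical alpha-kinase, was at -3.005 and -3.85 on UT and 0.44 and 0.16 on vit C arrays (log2 fold change 3.73, q = 0.00095), and stepped the other way with the slide (-1.34 and -1.80). TBX15, a T-box transcription factor of mesenchymal development, was at -2.08 and -2.16 on UT and 0.93 and 1.44 on vit C (3.31, q = 3.13e-06). SIGLEC7, an inhibitory lectin that binds sialic acid, was at -3.45 and -3.67 on UT and -0.96 and -0.77 on vit C (2.70, q = 6.79e-05). In these 4 genes both vit C arrays lay above both UT arrays by more than the arrays of a group differed, and each kept its call without any one of the 4 arrays. S100P, a calcium-binding S100 protein, was less even, at -0.75 and -3.81 on UT and 1.24 and 1.49 on vit C arrays (3.65, SE 0.82, q = 0.0248), with UT steps of -1.93 and -2.12. Leaving out single arrays moved its estimate from 2.12 to 5.18 and its q up to 0.244. Further rises among genes that did not step up with the slide, named here after their values were seen, were LARP6, which binds collagen messenger RNA (2.45), the glutathione peroxidase GPX8 (LOC493869 on the array, 2.62), and the heparin cofactor SERPIND1 (2.28).

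The IL11 promoter is shown because this gene led the called rises that were measured on all 4 arrays and did not step with the slide. It holds 1 AP-1 site, the element bound by Fos and Jun proteins (TGACTCA, either strand), in the 250 bases before its start, as did 1476 of 35116 promoters in RefSeq (4.2%). A match is a description of the letters and not a measured binding site. On the gene's strand the site reads TGAGTCA, its reverse complement. The stretch around it (chr19:55370508-55370584, GRCh38.p14, minus strand) reads 5′ to 3′, with the site in capitals:
IL11: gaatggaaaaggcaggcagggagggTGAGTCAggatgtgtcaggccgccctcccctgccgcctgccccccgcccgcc

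ACTG2, the smooth muscle gamma-actin, had the largest called fall among genes well above background on all 4 arrays. Its level was 2.10 and 1.97 on the UT arrays and -1.83 and -1.96 on the vit C arrays (log2 fold change -3.93, SE 0.21, q = 6.09e-07). Of 18 listed contractile genes well above background on all 4 arrays ACTG2 alone was called, the median log2 fold change was -0.13, and ACTA2, the vascular smooth muscle actin, was at -2.95 and -2.95 on UT and -2.26 and -2.79 on vit C. The ACTG2 promoter holds 2 CArG boxes, the element of serum response factor, 110 and 73 bases before the start, while 407 of 35116 promoters (1.16%) held at least 1. It is shown because this fall had the smallest q of all named genes (chr2:73892873-73892989, GRCh38.p14, plus strand, boxes in capitals, 5′ to 3′):
ACTG2: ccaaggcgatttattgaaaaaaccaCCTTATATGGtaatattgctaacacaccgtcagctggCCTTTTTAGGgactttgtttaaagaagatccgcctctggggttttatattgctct

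TNFRSF11B, which encodes osteoprotegerin, the decoy receptor that binds RANKL, was at 0.089 and 0.21 on UT and -3.20 and -3.44 on vit C arrays (-3.47, q = 0.000642). LOXL4, a lysyl oxidase-like collagen crosslinking enzyme, was at -0.18 and -0.31 on UT and -2.59 and -3.14 on vit C (-2.62, q = 3.45e-05). PNOC, the precursor of the neuropeptide nociceptin, was at 1.71 and 1.60 on UT and -1.04 and -0.82 on vit C (-2.59, q = 0.000348). In all 3 the groups stood apart by far more than the arrays within them. TSLP, an epithelial-type cytokine that acts on dendritic cells, was at 0.67 and 0.54 on UT and -1.75 and -1.94 on vit C (-2.45, q = 0.000549). SLC13A3, a sodium-coupled dicarboxylate transporter, fell by 2.45 on the log2 scale and SPRED1, an inhibitor of Ras to ERK signalling, by 2.27. ATP6V1C2, a subunit of the vacuolar proton pump, fell by 2.27 and CORO2B, an actin-binding coronin, by 2.20. BDNF, a neurotrophin, was at -1.30 and -1.06 on UT and -3.38 and -3.72 on vit C arrays (-2.37, q = 0.0376). All these groups were free of overlap.

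SGK, the gene of the serum- and glucocorticoid-regulated kinase SGK1, was called, but its vit C arrays lay far apart. It was at 6.81 and 6.89 on UT but 2.54 and 5.46 on vit C arrays (-2.85, SE 0.62, q = 0.0219), so the vit C arrays differed from each other by more than the nearer of them differed from UT. Without vit C replicate 1 the estimate was -1.39, without vit C replicate 2 it was -4.31, and q reached 0.13.

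**Figure D3:**
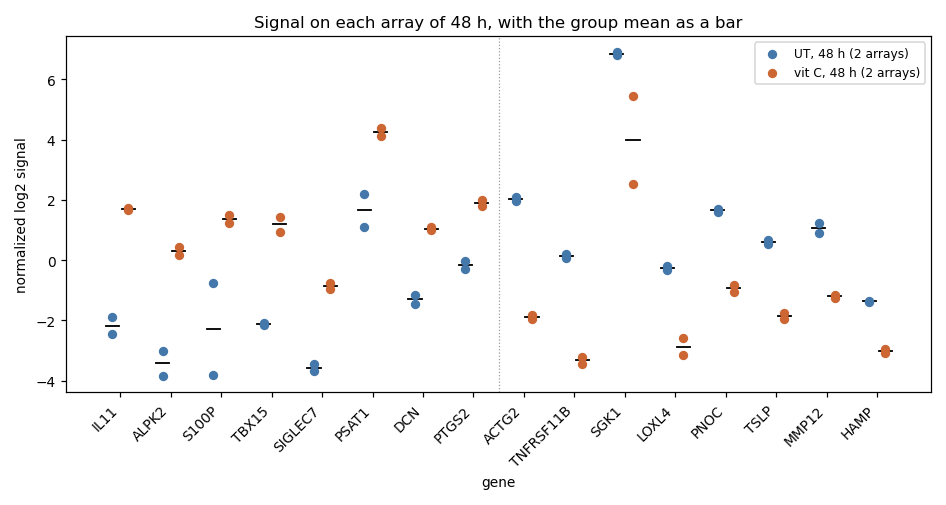
Normalized log2 signal (y axis) on each of the 4 arrays of 48 h for 8 genes called higher (left of the dotted line) and 8 called lower, with blue points for the 2 UT arrays, orange points for the 2 vit C arrays and a bar at each group mean. In all 16 genes the groups do not overlap, while S100P spreads within UT and SGK1 within vit C.

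Some genes were well above background in one group alone, for 282 genes by their brightest probe in UT and for 265 in vit C. Folds of these genes are lower bounds, set against the dimmest signal still well above background or the gene's own signal, whichever was higher. On the vit C side, PRRX2, a paired-related homeobox factor, was at least 6.03-fold higher with vit C, and SMPD3, the neutral sphingomyelinase that makes ceramide, at least 4.76-fold. SLC16A10, an aromatic amino acid transporter, was at least 4.78-fold higher and the kinesin KIF25 at least 5.34-fold. MFAP5, a microfibril-associated glycoprotein, had the largest bound, at least 6.43-fold, but its vit C arrays were far apart (-3.48 and -0.35) and it stepped with the slide within UT (1.80 and 2.88). On the UT side, F2R, the thrombin receptor PAR1, was at -2.42 and -2.33 on UT arrays and at least 4.73-fold lower with vit C. FFAR3, a receptor for short-chain fatty acids, was at least 4.52-fold lower, and the fibrinogen-like FGL2 at least 4.06-fold. MB (myoglobin) was at least 3.69-fold lower and RXFP1, the relaxin receptor, at least 3.34-fold. For RXFP1 the vit C signals themselves lay above that dimmest signal, so its bound equals its measured fold. The adjusted p of the 10 was between 0.000304 and 0.0271.

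Secreted ligands moved in both directions. EREG, an EGF receptor ligand, was at -0.12 and -0.067 on UT and 1.65 and 1.49 on vit C arrays (1.66, q = 0.00987). Of 18 growth factors well above background on all 4 arrays, 3 genes were called higher and 1 lower, EREG with VEGFA and GDNF, both by dimmer probes, and BDNF (median -0.063). Among 11 IL-6 family genes IL11 was called higher and LIF, a related cytokine, lower (-1.02, but -0.50 and no call with the slide 1 term). EDN1, the vasoconstrictor peptide endothelin 1, fell, at 0.58 and 0.73 on UT and -0.94 and -0.98 on vit C (-1.61, q = 0.00133), and ADM, the vasodilator adrenomedullin, at 1.65 and 1.75 on UT and -0.27 and -0.085 on vit C (-1.88, q = 0.000776). ADM and VEGFA were the only calls among 25 hypoxia-inducible factor targets and glycolysis genes, whose median was -0.23. TGFB3 fell, at 1.13 and 1.24 on UT and -0.54 and -0.85 on vit C (-1.88, q = 0.000348), the 1 call among 21 genes of the TGF-beta and BMP families well above background on all 4 arrays (median -0.19). BMP4, dimmer and well above background on 1 UT array and no vit C array, was called lower too.

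Chemokine genes were called in both directions. CXCL1, which attracts neutrophils, was at 6.43 and 6.61 on UT and 7.74 and 7.98 on vit C arrays (1.34, q = 0.00897), the 1 call among 7 chemokines of its kind (median 0.31, the largest difference being 2.50 for IL8, which was not tested because its probes opposed each other). CXCL13, which attracts B cells, was at 0.29 and 0.47 on UT and -1.32 and -1.28 on vit C (-1.68, q = 0.000923). CCL5, which attracts T cells and monocytes, was at 3.69 and 3.80 on UT and 2.30 and 1.97 on vit C (-1.61), and CCL23 was called higher (1.29, but 0.43 and no call with the slide 1 term), the 3 calls among 14 CCL and lymphocyte-attracting chemokines with a median of 0.073. Of 6 chemokine receptors, CCR7, which guides cells to lymph nodes, rose, at 0.59 and 0.38 on UT and 1.98 and 1.90 on vit C (1.45, q = 0.00221) and CX3CR1, the fractalkine receptor of monocytes, fell, at 1.19 and 1.40 on UT and -0.25 and -0.25 on vit C (-1.55, q = 0.013). IL23A, a subunit of interleukin 23, rose (1.15) and IL1RN, the interleukin 1 receptor antagonist, fell (-1.37) among 17 inflammatory cytokine genes (median -0.067). Of 20 interferon-stimulated genes (median -0.39, with 16 below 0) 16 could be tested and by limma 0 were called, with 1 higher at an unadjusted p of 0.05 and the same fold. Of 12 MHC class II genes 7 could be tested and 0 were called, also without adjustment.

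Sensors of microbes included 3 rises and no fall among 24 measured members (2.08% of all genes rose and 1.56% fell), with a median of -0.088 beside -0.070 for all genes. NOD2, which senses bacterial muramyl dipeptide, was at -1.56 and -1.38 on UT and 0.42 and 0.34 on vit C arrays (1.85, q = 0.00431), and at 1.12 without a call with the slide 1 term. LY96, the MD-2 partner of TLR4, was at 1.27 and 1.28 on UT and 2.75 and 2.47 on vit C (1.34, q = 0.00866). NLRC4, which nucleates the flagellin-sensing inflammasome, was at -0.42 and -0.20 on UT and 0.87 and 0.77 on vit C (1.13, q = 0.00975). TLR4 itself was at 0.052 and 0.28 on UT and 0.14 and 0.0076 on vit C and was not called, and TLR3 was dim (-6.26 and -6.67 on UT and -4.43 and -5.04 on vit C, q = 0.0824). The kinase subunit PIK3CD was at 0.86 and 0.81 on UT and 1.80 and 1.40 on vit C and was not called. The S100 alarmins S100A8 (1.58) and S100A12 (1.47) rose with S100P, 3 of 12 measured S100 genes (median 0.41). With the slide 1 term S100A8 was at 0.76 and S100A12 at 0.61, and neither was called. S100A9 was at -0.51 and -0.40 on UT and 0.93 and 0.98 on vit C arrays with q = 0.116. Complement gave 1 call each way among 13 genes, C2 higher (1.43) and ITGAM, a subunit of complement receptor 3, lower (-1.17).

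Lipid mediators and lipid handling changed at single genes. PTGS2, the inducible cyclooxygenase 2, was at -0.29 and -0.021 on UT and 2.005 and 1.79 on vit C arrays (2.05, q = 0.00756). ALOX5, the 5-lipoxygenase of leukotriene synthesis, rose as well (1.30), and PTGS1 was called lower by a dimmer probe, among 12 measured genes of these pathways (median -0.078). Of 27 cholesterol transport and lipoprotein genes, 2 rose and 5 fell, beside 2.08% and 1.56% of all genes (median -0.38). NPC2, which carries cholesterol out of lysosomes, was at 7.30 and 7.29 on UT and 6.16 and 6.11 on vit C (-1.16, q = 0.0041), and LIPA, the lysosomal acid lipase that frees it, at 5.20 and 5.36 on UT and 4.17 and 4.09 on vit C (-1.15, q = 0.014). The oxysterol-binding protein OSBPL5 fell by 1.24 on the log2 scale and the lipoprotein lipase cofactor APOC2 by 1.08. PPARG, the nuclear receptor that directs lipid uptake, rose, at 2.07 and 2.16 on UT and 3.50 and 2.94 on vit C (1.10, q = 0.029). With the slide 1 term none of NPC2 (-1.11), LIPA (-1.36), OSBPL5 (-1.04), APOC2 (-0.92) and PPARG (1.69) was called. The cholesterol exporters ABCA1 (2.54 and 2.36 on UT and 2.60 and 2.54 on vit C) and ABCG1 (-0.073 and -0.44 on UT and -0.27 and -0.59 on vit C) were not called, nor were PPARA, LIPG or SOAT2. Of 24 sterol and fatty acid synthesis genes 18 could be tested and by limma 0 were called (1 higher without adjustment). Lysosomal genes gave LIPA and CTSH (cathepsin H, -1.11) as 2 falls among 28 (median -0.27).

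Scavenger receptors went both ways. MARCO, which binds bacteria and particles, was at 1.43 and 1.32 on UT and 2.91 and 3.08 on vit C arrays (1.62, q = 0.00486), and VSIG4, a complement receptor of tissue macrophages, at 2.35 and 2.38 on UT and 3.64 and 3.71 on vit C (1.31, q = 0.00183). TIMD4, a phosphatidylserine receptor for dying cells, was at -0.89 and -0.84 on UT and -2.97 and -3.08 on vit C (-2.16, q = 0.00041), and MSR1, scavenger receptor A, at 1.52 and 1.68 on UT and 0.48 and 0.53 on vit C (-1.10, q = 0.0449). With MERTK, called by a dimmer probe, that makes 2 rises and 3 falls among 13 members, beside 2.08% and 1.56% of all genes (median -0.19). COLEC12, a related collectin, was not well above background in either group. Of 23 integrin and adhesion genes 1 rose and 3 fell (median -0.37), among them ITGB7 (-1.31) and ITGA6 (-1.21).

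Among genes linked to cyclic AMP, the called ones fell. GNG7, a G protein gamma subunit, was at -1.75 and -1.67 on UT and -3.02 and -2.74 on vit C arrays (-1.17, q = 0.023). The list held 4 falls (1.56% of all genes fell), EDN1 and GABBR1 among them, and no rise among 31 genes, 25 of which could be tested (median -0.12 over the 23 well above background on all 4 arrays). GABBR2 was well above background in UT alone and missed the threshold (q = 0.059), VIPR2 was not above background, and CREB1, the factor phosphorylated downstream, was at -0.51 and -0.48 on UT and -0.41 and -0.26 on vit C. The potassium channel gene KCNK3 was called lower by a probe other than its brightest. HAMP, the iron hormone hepcidin, was at -1.34 and -1.39 on UT and -3.07 and -2.96 on vit C arrays (-1.65, SE 0.19, q = 0.000657) and was the 1 call among 12 iron genes. Among 21 AP-1 and immediate early genes DUSP6, an ERK phosphatase, was the 1 call (-1.06, median of all -0.46).

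Matrix proteases held more falls than rises. Of 19 proteases and inhibitors measured on all 4 arrays, 4 fell and 1 rose, beside 1.56% and 2.08% of all genes, and the median log2 fold change was -0.96 beside -0.070 for all genes. MMP12, the macrophage elastase, was at 0.91 and 1.23 on UT and -1.15 and -1.26 on vit C arrays (-2.28, q = 0.00577). MMP1, interstitial collagenase, was at 7.02 and 7.19 on UT and 5.65 and 5.62 on vit C (-1.47, q = 0.00428), and ADAMTS1, which cleaves proteoglycans, at 0.062 and 0.22 on UT and -1.65 and -2.07 on vit C (-2.002, q = 0.000398). TIMP1, the inhibitor of these enzymes, fell with them (7.68 and 7.58 on UT and 6.03 and 6.04 on vit C, -1.59, q = 0.0049), and ADAM12 was the rise (1.57). MMP9, gelatinase B, was at 9.22 and 9.23 on UT and 8.48 and 8.64 on vit C and was not called. Both vit C arrays lay below both UT arrays in 12 of the 19, beside 38% of all genes so measured.

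Collagens and the proteins that coat them held more rises than falls, with 16 of 18 genes measured on all 4 arrays above 0 and a median of 0.53. DCN, the small proteoglycan decorin that binds collagen fibrils, was at -1.44 and -1.15 on UT and 1.10 and 0.99 on vit C arrays (2.34, q = 0.00833). LUM, its relative lumican, was well above background only with vit C (-3.25 and -3.58) and at least 2.27-fold higher, and COL16A1, a fibril-associated collagen, likewise at least 2.39-fold. VCAN, the large proteoglycan versican, rose by 1.16, and with MFAP5 these made 5 rises among the 27 listed genes, beside 2.08% of all genes. Of these, DCN, COL16A1 and MFAP5 lost the call with the slide 1 term, while LUM kept it. SPP1, osteopontin, was the 1 fall (7.72 and 7.96 on UT and 6.49 and 6.34 on vit C, -1.42, q = 0.0293). COL8A1 was at -2.34 and -2.40 on UT and -3.58 and -3.20 on vit C and was not called. Of 12 collagen hydroxylases and crosslinking enzymes, LOXL2 rose (1.40) and LOXL4 fell, and none of the vit C-dependent prolyl or lysyl hydroxylases was called (list median -0.54). Of 16 ascorbate-dependent histone and DNA demethylases on the array 12 could be tested, and of 13 vit C and glucose transporters 7. By limma 0 of either were called, also without adjustment. PLAU, urokinase, rose, at 5.05 and 5.06 on UT and 6.60 and 6.41 on vit C (1.45, q = 0.00226) and PLAT, tissue plasminogen activator, at -3.48 and -3.57 on UT and -1.56 and -1.68 on vit C (1.90, q = 0.0353). PROC, anticoagulant protein C, fell, at -2.02 and -2.19 on UT and -3.86 and -4.02 on vit C (-1.83, q = 0.00083), so that with SERPINB2 (by a dimmer probe) and F2R, 3 of 17 coagulation and plasminogen genes rose and 2 fell, beside 2.08% and 1.56% of all genes (median 0.21 over the 13 well above background on all 4 arrays).

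Genes of the osteoclast programme and its TNF receptor family gave 5 falls and no rise among 13 members well above background on all 4 arrays (1.7% of all such genes fell), with a median of -0.59. CA2, a carbonic anhydrase that supplies protons for bone resorption, was at 2.46 and 2.42 on UT and 0.48 and 0.45 on vit C arrays (-1.97, q = 0.0185). OCSTAMP (C20orf123 on the array), a membrane protein of cell fusion, was at 4.93 and 4.66 on UT and 2.76 and 2.80 on vit C (-2.01, q = 0.00516). TNFRSF9 fell by 1.59 on the log2 scale and TNFRSF21 by 1.01, beside TNFRSF11B. With the slide 1 term CA2 (-2.635) and OCSTAMP (-1.52) were not called, while TNFRSF11B was. TNFRSF11A, which encodes RANK, was called but was not well above background in either group, so no fold is given. ACP5, CTSK and NFATC1, other markers of osteoclasts, were not called.

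Of the lists, that of the stress factor ATF4 held the most rises. Of 21 ATF4 and endoplasmic reticulum stress genes, all well above background on all 4 arrays, 7 were called higher (2.08% of all genes) and 0 lower, and the median log2 fold change was 0.84. PSAT1, an enzyme of serine synthesis, was at 2.20 and 1.10 on UT and 4.39 and 4.13 on vit C arrays (2.60, q = 0.00286). ASNS, asparagine synthetase, was at 4.45 and 3.68 on UT and 6.16 and 5.94 on vit C (1.99, q = 0.00852), and STC2, a secreted glycoprotein, at -0.24 and -1.65 on UT and 1.47 and 1.12 on vit C (2.24, q = 0.0185). The other calls were PHGDH, the first enzyme of serine synthesis (1.98), the pseudokinase TRIB3 (1.73), DDIT4, an inhibitor of mTOR complex 1 (1.64), and CHAC1, which degrades glutathione (1.45). In none of the 7 did the groups overlap, but in all 7 UT replicate 1 lay above UT replicate 2. ATF4 itself was at 7.57 and 7.30 on UT and 7.94 and 7.90 on vit C, and HSP90B1, a chaperone of the unfolded protein response (-0.037), was not called. The number of calls ranged from 1 to 7 when single arrays were left out and was 4 with the slide 1 term. In UT cells of 96 h the mean level of ASNS was 6.10, beside 6.05 in vit C cells of 48 h, and that of PSAT1 was 4.58 beside 4.26.

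Promoters were searched for the core of the ATF4 response element (TGATGNAA, either strand) in the 250 bases before the start. Of all 35116 promoters 1104 held it (3.14%), of the 7 called genes 2 did, ASNS and CHAC1, and of 13 other listed genes with a promoter 1 did. Its absence says only that these letters are not in this window. In CHAC1 it reads TTGCATCA on the gene's strand, the reverse complement. The stretches around the 2 matches are shown because both genes rose (chr7:97872424-97872501, minus strand, and chr15:40953237-40953314, plus strand, GRCh38.p14, 5′ to 3′, element in capitals):
ASNS: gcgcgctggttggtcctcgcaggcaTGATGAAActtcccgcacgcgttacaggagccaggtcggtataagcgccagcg
CHAC1: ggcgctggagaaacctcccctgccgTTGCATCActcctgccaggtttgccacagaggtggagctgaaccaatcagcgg

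None of the 30 listed mitosis genes was called by limma (1 higher without adjustment). All 30 were above 0, from 0.13 for MAD2L1 to 1.19 for CENPK, with a median of 0.62, and in 28 both vit C arrays lay above both UT arrays, as in 25.6% of all genes measured on all 4 arrays. Within the groups UT replicate 1 lay above UT replicate 2 in 7 of the 30, and vit C replicate 1 above vit C replicate 2 in 26. Outside the list, and looked up after the values were seen, the spindle gene CKAP2L (1.72) and the cytokinesis kinase CIT (1.25) were called higher. PLK1, the polo-like mitotic kinase, was at 3.22 and 3.17 on UT and 3.88 and 4.27 on vit C arrays (0.88, q = 0.0223) and KIF20A, a kinesin of cell division, at -0.43 and -0.52 on UT and 0.53 and 0.42 on vit C (0.95, q = 0.0233), both under the fold threshold. The 39 DNA replication genes had a median of -0.061 and no call among the 33 tested, and 10 housekeeping genes a median of -0.17 and no call among the 8 tested, in both also without adjustment. The 20 NRF2 and antioxidant genes gave 1 call, SLC7A11 by a dimmer probe (median -0.17). Of 10 metallothionein genes (median 0.30) 7 could be tested and 0 were called, also without adjustment. MT1M, a metallothionein, was at 0.54 and 0.65 on UT and 2.58 and 2.92 on vit C, stepped with the slide within UT (1.54 and 1.15) and was not tested because of opposing probes.

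**Figure D4:**
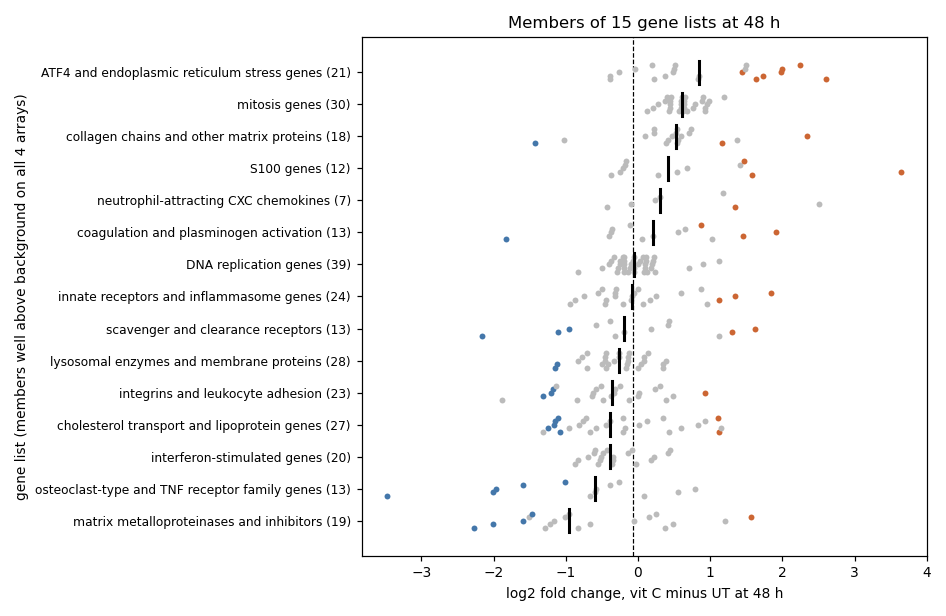
Log2 fold change at 48 h (x axis) of the members of 15 gene lists (y axis, number of members well above background on all 4 arrays in parentheses), with orange points for genes called higher, blue for lower, grey for not called and a black bar at the list median. The dashed line is the median of all genes (-0.070); the medians of the ATF4 and mitosis lists lie to its right and those of the matrix protease and osteoclast lists to its left.

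The response at 48 h was set against those of the other time points by testing the difference of the effects, which shares no arrays between times. Of 25342 genes 59 differed from 8 h (0.233%), of 25741 genes 34 differed from 24 h (0.132%) and of 25872 genes 235 differed from 96 h (0.908%). IL11 had log2 fold changes of -0.55 and 2.27 at the earlier time points and 1.47 at 96 h, around the 3.87 of 48 h, and the effect at 48 h exceeded that at 8 h by 4.42 (q = 0.00252) and that at 96 h by 2.40 (q = 0.0469). ALPK2 was not well above background on any array of 8 or 24 h, so no change is given there. Its change at 96 h was 0.44, and the 48 h effect differed from it (q = 0.035). The 48 h effect of TBX15 differed from those of all 3 other time points, with effects of 0.016, 0.25 and 0.61 at 8, 24 and 96 h. The UT cells reached a TBX15 mean of 1.10 at 96 h, beside 1.19 in vit C cells at 48 h. JUB (the LIM protein AJUBA) was another gene whose 48 h effect differed from all 3, by 1.99, 2.46 and 1.84. SIGLEC7 was higher with vit C at 24 h (2.38) and 96 h (3.01) too, and its 48 h effect was not called different from either.

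Falls followed several courses. For ACTG2 the effects at 8, 24 and 96 h were -1.23, -2.65 and -0.12, beside -3.93 at 48 h, and 48 h differed from 8 h (q = 0.000852) and 96 h (q = 5.63e-05). The UT mean of ACTG2 was 2.03 at 48 h and -0.23 at 96 h. PNOC was lower with vit C at 96 h as well (-3.09), and its 48 h effect was not called different from that. TNFRSF11B and LOXL4, lower with vit C at 48 h, had effects of 0.30 and 0.039 at 96 h (q of the difference 0.00939 and 0.00117). At 24, 48 and 96 h the TNFRSF11B means were -3.18, 0.15 and -2.65 in UT and -4.57, -3.32 and -2.35 with vit C. TSLP was at -2.02, 0.61 and -2.95 in UT and -3.53, -1.84 and -2.67 with vit C. SLC13A3 was at -2.97, -0.40 and -4.64 in UT and -3.39, -2.85 and -5.665 with vit C. In all 3 genes the vit C mean rose from 24 to 48 h and the UT mean rose by more. HAMP turned, from -1.65 at 48 h to 1.64 at 96 h (q = 9.66e-05), and IL33, an alarmin cytokine, stood at -0.75 at 48 h without a call and 3.15 at 96 h (q = 0.00723). PSAT1 was at 0.13, -0.11 and -0.31 at 8, 24 and 96 h, and its 48 h effect differed from that at 96 h (q = 0.0256). Chitotriosidase (CHIT1), a macrophage enzyme, and the ubiquitin ligase gene HECTD2 fell at 48 h (-1.31 and -1.45) beside effects of 0.998 and 0.93 at 24 h, and the difference was -2.31 and -2.38. With the slide 1 term CHIT1 was at -0.67 and HECTD2 at -1.38 at 48 h, and neither was called.

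**Figure D5:**
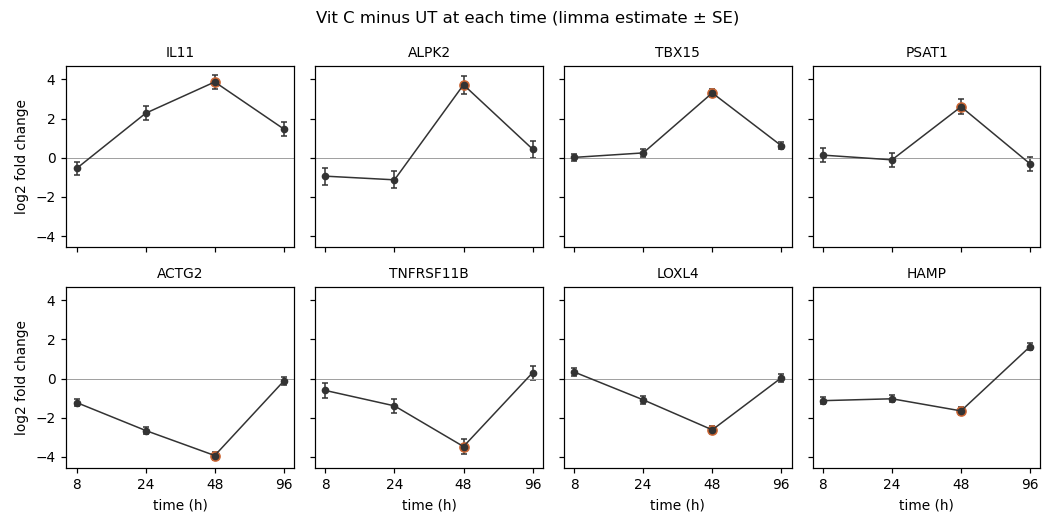
Log2 fold change of vit C over UT (y axis, limma estimate with its SE as bars) at 8, 24, 48 and 96 h (x axis) for 4 genes called higher at 48 h (top) and 4 called lower (bottom), with the 48 h point in orange. IL11, ALPK2, TBX15 and PSAT1 have their highest estimate at 48 h, and ACTG2, TNFRSF11B and LOXL4 are lowest at 48 h and near 0 at 96 h, where HAMP is above 0. The points of ALPK2 at 8 and 24 h are estimates from signals not well above background.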

How the data were processed

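RNA of PMA-differentiated THP-1 cells was hybridised to one-colour Agilent arrays, 19 in all. Per the file headers, the authors' scanner files come from Agilent Feature Extraction 10.5.1.1 and hold intensity values per spot, of which the background-corrected processed signal was used. The deposited series table holds log2 values normalized to the 75th percentile by the authors and served as an alternative. Of 52857 spots, 51538 were no controls and none was saturated. From the intensities, log2 signals minus the array's 75th percentile were computed and spots of a probe averaged, giving 50238 probes. Low signals cost little precision at bright probes and much at dim ones.

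Differences were tested in R 4.3.3 with limma 3.58.1, two-sided, on all 19 arrays in 8 groups, so that the spread is estimated over all of them. A gene was called if any probe passed a log2 fold change of 1 and q of 0.05. Genes with opposing probes were removed, following the study's methods, and limma replaced its t-test because 2 arrays per group leave that test few degrees of freedom. Gene names are those of the array design, matched to RefSeq symbols. Promoters come from RefSeq (GRCh38.p14).

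Named were genes that the study discusses for 48 h, among genes with a RefSeq symbol the 12 largest called changes in each direction measured on all 4 arrays without overlap and the 5 largest lower bounds in each direction, the 3 largest calls in each of 43 gene lists and the 3 largest differences between time points. Other list members were named after their values were seen. The members and lists were chosen with earlier results of these data known. Alternatives covered the samples, test, trend, scaling, background, floor (signal 20), dim probes, probe summary, slide, replicate block, array weights and single arrays. Both the slide 1 term and leaving out genes that step with the slide were added after seeing the data.

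Replicate numbers did not pair the 48 h arrays: same-numbered arrays deviated with a correlation of -0.00949. Values of some genes are not reported here.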

Additional observations from a re-analysis of the deposited data

Results flagged for a closer look

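The results in this section are genes named above whose vit C effect at 48 h differed from the effect at another time point, by limma's test of the difference itself (absolute log2 difference of at least 1, q of at most 0.05 over all genes tested). The number after each gene is the effect at 48 h minus that at the other time point on the log2 scale. A positive number can be a weaker fall, as for PROC, which was lower with vit C at 48 h (-1.83) and at 96 h (-3.40). Against 8 h, the effect at 48 h was higher for IL11 (4.42), TBX15 (3.29), PTGS2 (2.82), SIGLEC7 (2.27), JUB (1.99) and CCR7 (1.60), and lower for LOXL4 (-2.95), ACTG2 (-2.70), PNOC (-2.41), ATP6V1C2 (-2.06), TIMD4 (-1.85) and CXCL13 (-1.79) (q from 0.000264 to 0.0441). Against 24 h, it was higher for TBX15 (3.06) and JUB (2.46), and lower for HECTD2 (-2.38), CHIT1 (-2.31), HSPB3 (-1.78) and CXCL13 (-1.65) (q from 0.00137 to 0.0441). Against 96 h, it was higher for MT1M (3.49), ALPK2 (3.29), PSAT1 (2.92), TBX15 (2.70), IL11 (2.40), JUB (1.84), CCR7 (1.62), PROC (1.57) and IL23A (1.38), and lower for IL33 (-3.90), ACTG2 (-3.81), TNFRSF11B (-3.77), HAMP (-3.29), TSLP (-2.73), LOXL4 (-2.66), ADAMTS1 (-1.92) and CORO2B (-1.71) (q from 5.63e-05 to 0.0469). Further genes passed the test although 1 or more of the 4 groups compared had no array well above background, so their fitted values are neither sizes nor bounds. These were ALPK2 (4.67), SMPD3 (4.54), PRRX2 (3.87) and LUM (3.01) against 8 h, ALPK2 (4.86), PRRX2 (4.52) and LUM (3.90) against 24 h and SMPD3 (4.26) and COLEC12 (-2.995) against 96 h, and the ranges of q include them. At 8 and 24 h each UT array lies on slide 1 and each vit C array on slide 2, much as at 48 h, while at 96 h the UT arrays lie on slides 1 and 2 and the vit C arrays on slide 4. With a slide 1 term in the model 85, 64 and 175 genes differed from 8, 24 and 96 h. MT1M stepped with the slide within UT at 96 h, COLEC12 was not well above background in either group at 48 h, and HSPB3, IL33, MT1M and COLEC12 were not called at 48 h.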

How the results depend on the processing

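Of 89 genes that the naming rule took and that were called at 48 h by their brightest probe, 30 kept the call with the slide 1 term, 37 without each of the 4 arrays in turn and 23 under both: IL11, ALPK2, TBX15, SIGLEC7, PSAT1, LUM, C2, VSIG4 and JUB among the rises and ACTG2, TNFRSF11B, LOXL4, PNOC, TSLP, SLC13A3, SPRED1, FFAR3, HAMP, EDN1, CXCL13, PROC, ADAMTS1 and TGFB3 among the falls. The slide 1 term only subtracts the mean UT step of 96 h. Where that step runs against the change, the estimate grows, as for ALPK2 (3.73 to 5.30), PSAT1 (2.60 to 3.58), SLC13A3 (-2.45 to -3.46) and PNOC (-2.59 to -3.33). For such genes keeping the call with this term is no check of the slide. With slide as a fixed block, which also drops vit C replicate 2, the only array of slide 3, 19 of the 89 kept it, and of the 23 these were IL11, ALPK2, TBX15, SIGLEC7, PSAT1, LUM, JUB, ACTG2, LOXL4, PNOC, SLC13A3, FFAR3 and TGFB3. Leaving out genes with a slide step left 397 genes higher and 393 lower.

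The counts called higher and lower at 48 h were 0 and 0 on the 4 arrays alone, 1 and 2 by the methods' t-test with Benjamini-Hochberg adjustment (914 and 616 unadjusted), 1141 and 749 with array weights, 290 and 163 with normexp, 64 and 74 with slide as a fixed block and 86 and 57 with the slide 1 term. Single arrays left out gave 120 to 332 higher and 158 to 222 lower, lowest without vit C replicate 2 and UT replicate 2, and the lone array is then assumed to vary like the other groups. With the replicate block, 190 and 145 were called, and by limma 0, 0 and 9 genes differed from 8, 24 and 96 h (1758 and 2154 unadjusted for the first 2). The same 3 counts were 479, 77 and 3504 with array weights, 214, 195 and 518 with a floor of 20, about 1.1e+02, 78 and 352 with a trend, and 168, 111 and 403 with quantile normalization. Differences from 8 h numbered 35 with opposing probes kept. From 24 h they numbered 53 and 19 with probes well above background in a group or on all 4 arrays, 64 with the slide 1 term and 116 with the slide block. From 96 h they numbered 148 with slide as a random block and could not be estimated with the fixed block. Without single arrays they ranged from 60 to 73 (8 h), 30 to 99 (24 h) and 81 to 212 (96 h). All other alternatives kept these counts within 1.5 times.

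Signs changed for 14 values of named genes. With slide as a fixed block the log2 fold change was 1.81 for ABCG1, 0.57 for KCNK3, -0.72 for NACAP1, -0.30 for CSNK1A1L, -0.27 for LOC642490, -0.070 for FKSG2 and -0.035 for HSPB3. With the slide 1 term it was 1.65 for ABCG1, -0.20 for NACAP1, -0.15 for LOC642490 and -0.067 for HSPB3. Without single arrays it ranged from -0.78 to 0.35 for VIPR2 and from -0.35 to 0.0091 for ABCG1, both highest without UT replicate 1, and with normexp it was -0.069 for ABCA1. The cause was not tested.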
